A study of Homo sapiens with 6 samples.

Results

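The SLC25 carriers were taken as every gene whose symbol is SLC25A followed by a number, which gave 48 of the 28265 genes in the count table. Of these 48 genes, 41 had enough reads to be tested, among 14533 genes tested in all. The study profiled RNA of Huh7, a cell line from a human hepatocellular carcinoma, after lentiviral transduction for 48 h, with a vector that expressed LHX2 in 3 libraries and with a control vector in 3 libraries. Cells of both groups were kept in high-glucose medium with serum and antibiotics, and the labels call the control cells parental although they too received a vector. No source used here gives the promoter of the vector, its dose or the share of transduced cells. LHX2 encodes a LIM-homeodomain transcription factor. Whether the libraries of a group came from separate cultures is not stated in the labels, and the p-values therefore measure no more than the spread among these 6 libraries, which may be technical.

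Members of the SLC25 family are small proteins with 6 membrane-spanning helices, nearly all of them in the inner mitochondrial membrane. Each moves a narrow set of solutes between cytosol and matrix, often by exchange: ADP for ATP, phosphate with protons, amino acids, carboxylates, acylcarnitines, cofactors, nucleotides, iron or glutathione. In hepatocytes they feed the urea cycle, the malate-aspartate shuttle, fatty acid oxidation and the export of citrate for lipid synthesis.

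Total counts per library ran from 30029313 to 39653681. LHX2 itself was counted 1, 2 and 1 times with the control vector and 2535, 2427 and 3126 times with the LHX2 vector. All 10 hepatocyte markers were detected, with a summed level of 49140 to 50520 CPM (read counts scaled to library size with TMM factors) in the control libraries and 45770 to 50180 in the LHX2 libraries. AFP and ALB made up most of that sum; SERPINA1 (-0.30, adjusted p = 0.00012), HNF4A (-0.26, 0.00027) and TTR (-0.17, 0.0039) fell in log2 fold change and TF rose (0.22, 0.0055). Of 4 leukocyte markers, PTPRC and CD3E were at or near 0, while LYZ and CD68 brought the list's sum to 469 to 499 CPM in control and 610 to 677 in LHX2 libraries. The 4 stellate cell and fibroblast markers summed to 9.11 to 10.4 CPM in control and 35.8 to 38.2 in LHX2 libraries, nearly all of it COL1A2, with DCN, PDGFRB and COL1A1 near 0. Of 3 endothelial markers CDH5 and KDR were at 0 and PECAM1 stood at 4.02 and 3.03 CPM, and the muscle and germ cell markers were near 0 in both groups. The part of these marker differences in the carrier results was not tested. Replicate 3 of each group stood apart: on the second principal component of all genes (12.9% of the variance) control replicate 3 lay at -12.4 against 7.68 and 4.76 for the other controls, and LHX2 replicate 3 at 17.4 against -7.26 and -10.2. Libraries also differed by group in how levels followed transcript length, with a slope of -0.04 to -0.02 log2 CPM per doubling of length in control and 0.02 to 0.04 in LHX2 libraries. The slope with GC content was -0.0545 log2 CPM per 10% GC in control replicate 3 and 0.0613 in LHX2 replicate 3. In the other libraries it ran from -0.0133 to 0.018. Each tested carrier was also fitted with these trends removed, as an alternative described below. Whether the slopes lay behind the change of any carrier was not tested.

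Introduction of LHX2 was accompanied by small changes in both directions among the carriers. In RNA of whole cultures, a change in every cell and a change in the share of cells that express a gene cannot be told apart. At an adjusted p under 0.05 (edgeR quasi-likelihood test, Benjamini-Hochberg over all 14533 genes), 8 of 41 tested members rose (19.5%), 9 fell (22%) and 24 did not pass. Over all genes tested, 16.6% rose and 15.8% fell (32.5% in either direction), so these shares lay near the background and are not a result about the family. SLC25A18, SLC25A27, SLC25A35, SLC25A29, SLC25A16, SLC25A36, SLC25A45 and SLC25A24 rose. SLC25A5, SLC25A33, SLC25A37, SLC25A38, SLC25A20, SLC25A32, SLC25A13, SLC25A43 and SLC25A46 fell. The CPM of the groups did not overlap in 10 members that were higher and 13 that were lower with LHX2, against 22.9% and 22.1% of all genes (44.9% in either direction). Log2 fold changes (LHX2 over control) ran from -0.36 to 1.23 with a median of -0.08, beside a median of 0.01 over all genes. The median size of the change without its sign was 0.17, beside 0.16 over all genes, and only SLC25A18 and SLC25A27 changed by 1.5-fold or more.

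**Figure D1:**
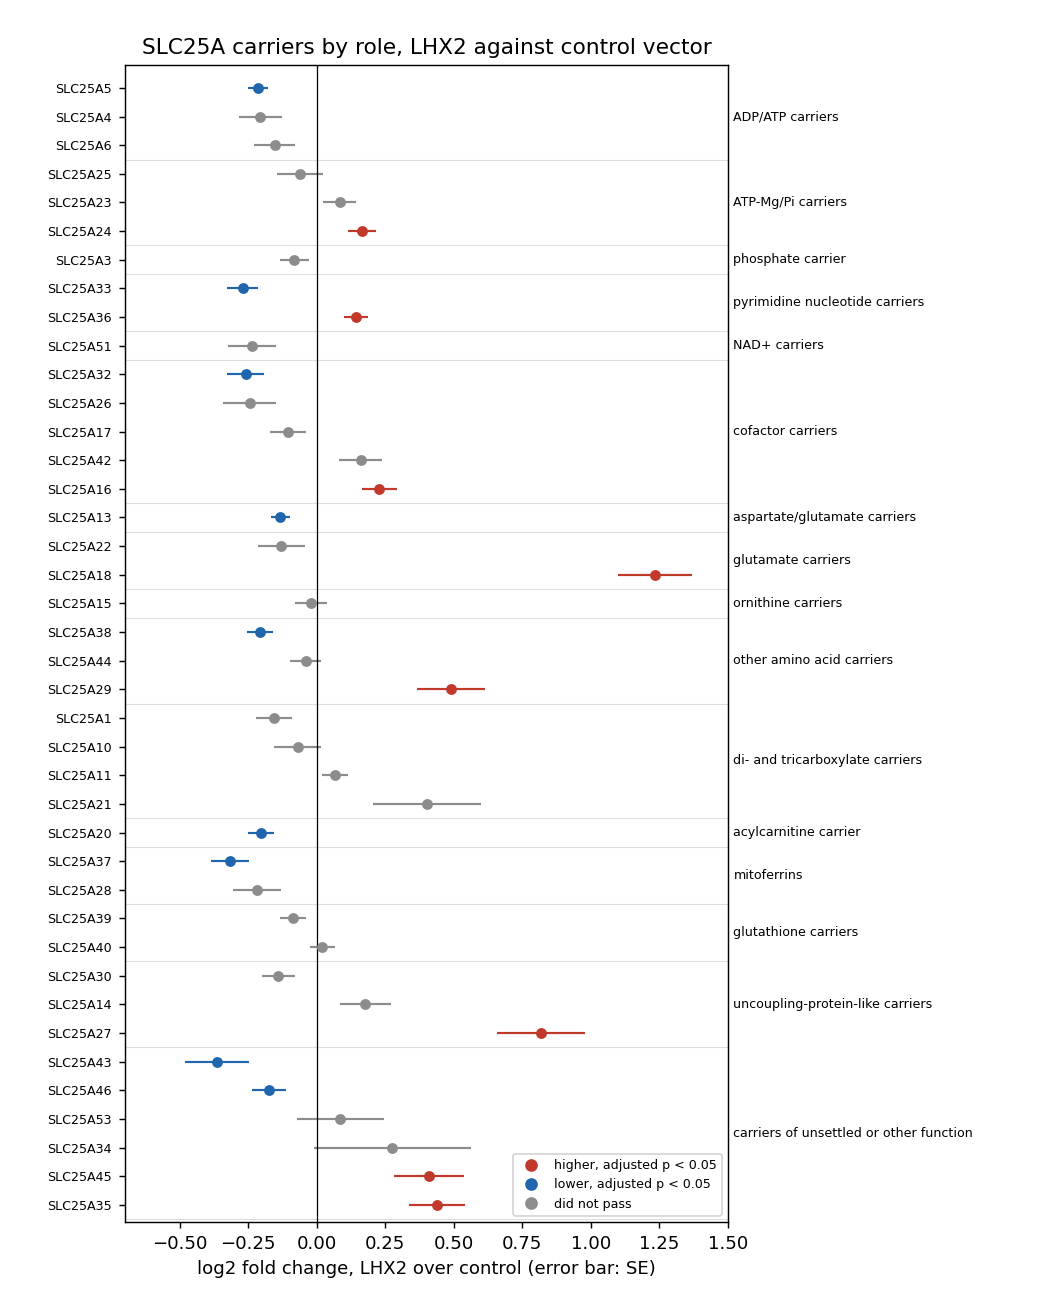
Log2 fold change (LHX2 over control vector, horizontal axis) of 40 of the 41 tested SLC25A genes, ordered by role, with the standard error as bar and genes that rose, fell or did not pass in separate colours. SLC25A18 at 1.23 and SLC25A27 at 0.82 lie far to the right, and every gene that fell lies between -0.36 and -0.13.

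These counts moved with the libraries used. Without replicate 3 of both groups, a setting added after the data were seen, 5 members rose and 14 fell, against 15.9% and 16.1% of all genes. With each library's trend with transcript length and GC content removed, 8 rose and 14 fell, against 15.7% and 20.2% of all genes. Without control replicate 1, 4 rose and 8 fell, against 12.8% and 12.7% of all genes.

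The summed level of the 48 genes was 2055, 2062 and 1968 CPM in control replicates 1 to 3 and 1919, 1858 and 1955 CPM in LHX2 replicates 1 to 3. The 3 LHX2 libraries thus lay below the 3 controls, the nearest of them by little. As a share of all reads the groups overlapped, at 0.194% to 0.205% in control and 0.186% to 0.2% in LHX2 libraries. Between 55.9% and 57.9% of the carrier reads came from 6 genes: SLC25A3, SLC25A5, SLC25A13, SLC25A6, SLC25A39 and SLC25A36. Per kilobase of the principal transcript, the control cells held most of SLC25A3 (232 ± 17.2 CPM per kb, SD, n = 3) and SLC25A5 (221 ± 1.55), which did not differ beyond their spread. SLC25A6 (67.6 ± 7.29), SLC25A13 (61.9 ± 0.367), SLC25A39 (52.3 ± 2.51) and SLC25A1 (38.4 ± 2.44) followed. SLC25A6 and SLC25A13 were likewise within each other's spread, as were SLC25A1 and SLC25A15, the mitochondrial ornithine carrier (38.3 ± 1.45).

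**Figure D2:**
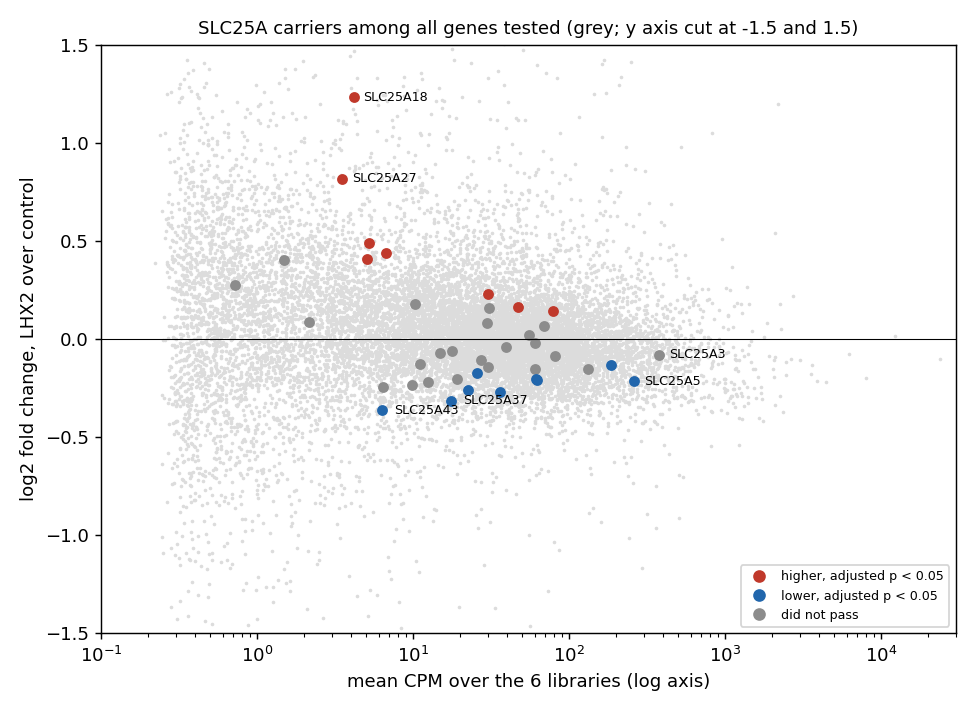
Log2 fold change (LHX2 over control, vertical axis, shown from -1.5 to 1.5) against mean CPM over the 6 libraries (log axis) for all genes tested (grey) and the SLC25A genes (coloured by call). The carriers lie within the cloud of all genes, SLC25A18 and SLC25A27 at low levels near its upper edge and SLC25A5 and SLC25A3 at high levels close to 0.

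The adenine nucleotide carriers SLC25A4, SLC25A5 and SLC25A6 (ANT1 to ANT3) exchange matrix ATP for cytosolic ADP and so link oxidative phosphorylation to the rest of the cell. SLC25A5, at chrX:119468444-119471396 of GRCh38, had 279, 283 and 281 CPM in the control libraries and 249, 239 and 239 CPM in the LHX2 libraries. Every LHX2 library was below every control, and the log2 fold change was -0.22 ± 0.04 (SE; adjusted p = 0.00038), a level 1.16-fold lower. SLC25A6, which lies in the pseudoautosomal part of the X chromosome, had 147, 149 and 122 CPM in control and 119, 116 and 140 CPM in LHX2 libraries. Here control replicate 3 was nearly as low as the lower LHX2 libraries and LHX2 replicate 3 nearly as high as the controls, the groups overlapped, and the change of -0.15 ± 0.08 did not pass (adjusted p = 0.14). Without replicate 3 of both groups SLC25A6 fell by 0.33 on the log2 scale (adjusted p = 1.7e-05), and without control replicate 3 alone by 0.24 (0.0091), without LHX2 replicate 3 alone by 0.24 (0.0092). It also passed with the length and GC trend removed (-0.22, adjusted p = 0.00085) and with every counted gene kept in the test (-0.16, 0.025). Over all 15 alternatives its adjusted p ran from 1.7e-05 to 0.42. SLC25A4, the heart and muscle form, stood at 20.6 ± 1.65 CPM in control and 17.8 ± 1.16 in LHX2 libraries (log2 fold change -0.21 ± 0.08, adjusted p = 0.059). It too passed without control replicate 3 (-0.27, adjusted p = 0.018) or LHX2 replicate 3 (-0.25, 0.037), without both (-0.31, 0.0058), with the length and GC trend removed (-0.22, 0.033) and with every counted gene kept (-0.21, 0.044), with a range of 0.0058 to 0.24 over the alternatives. SLC25A31, the testis form, had no count in any library. The ADP/ATP carrier genes are close copies of each other with processed pseudogenes, so reads may have been shared among them, and 15.1% of the exonic bases of SLC25A5 lie opposite the antisense gene SLC25A5-AS1, which stood at 0.478 and 0.432 CPM.

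SLC25A3, the phosphate carrier that supplies the ATP synthase, was the carrier with most reads. It had 403, 410 and 356 CPM in control and 369, 349 and 386 CPM in LHX2 libraries. The groups overlapped, and the change of -0.08 ± 0.05 did not pass (adjusted p = 0.27). Without control replicate 3 it was -0.14 (adjusted p = 0.037), without replicate 3 of both groups -0.18 (0.003), and the adjusted p ran from 0.003 to 0.72 over the alternatives. The ATP-Mg/phosphate carriers, most of which are calcium-regulated, change the total adenine nucleotide content of the matrix. SLC25A24 rose from 44.5 ± 1.11 to 49.9 ± 2.84 CPM (log2 fold change 0.17 ± 0.05, adjusted p = 0.023). SLC25A23 (28.6 ± 0.901 and 30.3 ± 1.39 CPM, adjusted p = 0.31) and SLC25A25 (18.0 ± 0.865 and 17.2 ± 1.85 CPM, adjusted p = 0.62) did not pass. SLC25A41 had 0 to 3 counts per library and was not tested. The call of SLC25A24 was lost when control replicate 1 (adjusted p = 0.078), control replicate 3 (0.072), LHX2 replicate 2 (0.075) or LHX2 replicate 3 (0.069) was left out, and its adjusted p ran from 0.0081 to 0.13 over the alternatives.

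The 2 pyrimidine nucleotide carriers, which bring pyrimidine nucleotides into the matrix for the synthesis of mitochondrial DNA and RNA, went in opposite directions. SLC25A33, at chr1:9539465-9585173, had 39.3, 40.4 and 38.9 CPM in control and 35.2, 32.3 and 31.1 CPM in LHX2 libraries. The groups were apart, with a fall of 0.27 ± 0.06 on the log2 scale (adjusted p = 0.0019). SLC25A36, at chr3:140941836-140980995, had 73.3, 72.5 and 77.7 CPM in control and 81.9, 84.6 and 80.2 CPM in LHX2 libraries. Here every LHX2 library was above every control, and the rise was 0.14 ± 0.04 (adjusted p = 0.02). Per kilobase, SLC25A33 stood at 0.646, 0.670 and 0.602 of SLC25A36 in the control libraries and at 0.517, 0.459 and 0.466 in the LHX2 libraries. This ratio within a library does not depend on library scaling. That its groups did not overlap follows from the values of the 2 genes above and is no separate support. The rise of SLC25A36 was lost without control replicate 1 (adjusted p = 0.08), control replicate 2 (0.12) or LHX2 replicate 2 (0.065), with a range of 0.0052 to 0.12 over the alternatives, while SLC25A33 passed under all 15. The 250 bases upstream of both start sites are printed to show that the pair, although moving in opposite directions, both hold the E-box CACGTG, given in capitals. Both are on the plus strand of GRCh38.p14, from RefSeq, 5′ to 3′, SLC25A33 at chr1:9539215-9539464 and SLC25A36 at chr3:140941586-140941835. The first base of the motif lies 26 bases before the start of SLC25A33 and 143 bases before that of SLC25A36.
SLC25A33: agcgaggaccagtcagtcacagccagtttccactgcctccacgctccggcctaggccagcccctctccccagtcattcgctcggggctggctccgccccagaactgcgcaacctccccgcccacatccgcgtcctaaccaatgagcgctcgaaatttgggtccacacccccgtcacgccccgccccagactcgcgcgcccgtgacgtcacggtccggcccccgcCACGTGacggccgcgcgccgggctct
SLC25A36: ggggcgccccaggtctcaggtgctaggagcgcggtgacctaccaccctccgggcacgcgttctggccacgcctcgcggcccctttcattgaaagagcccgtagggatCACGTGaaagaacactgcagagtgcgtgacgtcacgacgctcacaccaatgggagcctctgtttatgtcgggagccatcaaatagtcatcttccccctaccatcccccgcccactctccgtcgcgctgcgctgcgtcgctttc

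**Figure D3:**
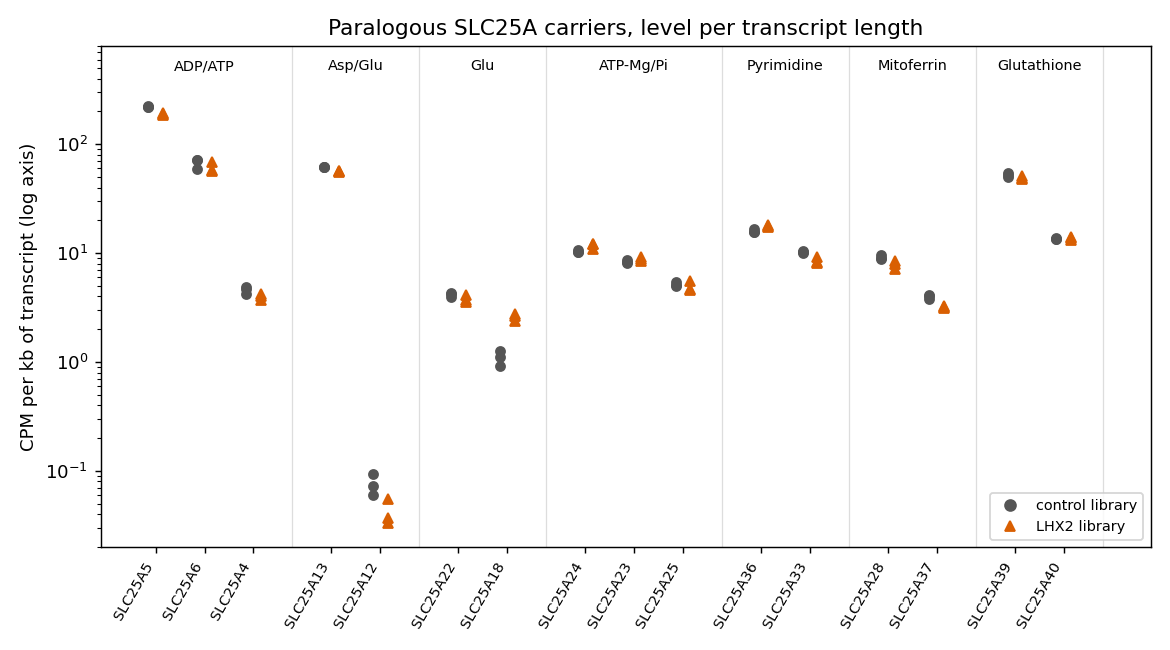
CPM per kb of principal transcript (log axis) of the SLC25A genes with a paralogue of like substrate, 1 point per library, control libraries as circles and LHX2 libraries as triangles. SLC25A18 rises toward SLC25A22, SLC25A33 and SLC25A36 move apart, and SLC25A12 lies far below SLC25A13 in both groups.

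Carriers of cofactors gave 1 rise and 1 fall among 6 tested. SLC25A32, the folate and flavin carrier at chr8:103398638-103415107, had 24.0, 26.3 and 23.4 CPM in control and 20.1, 20.9 and 20.7 CPM in LHX2 libraries. All LHX2 libraries were lower, with a fall of 0.26 ± 0.07 on the log2 scale (adjusted p = 0.0081). The call was lost without control replicate 2 (adjusted p = 0.067, the highest of the alternatives, against a lowest of 0.0041). On the same strand, the annotated coding gene AC012213.5 shares 69.7% of the exonic bases of SLC25A32 and was not counted under that symbol. DCAF13 lies opposite 11.1% of the exonic bases of SLC25A32 and fell by 0.31 on the log2 scale itself (adjusted p = 4.3e-05). No source used here gives the strand setting of the authors' counting, so reads of SLC25A32 and DCAF13 may have been shared. SLC25A16, a carrier linked to coenzyme A in the matrix, had 26.9, 27.9 and 28.5 CPM in control and 32.8, 34.6 and 30.2 CPM in LHX2 libraries. The groups did not overlap, and the rise was 0.23 ± 0.06 (adjusted p = 0.011), lost without control replicate 1 (0.054) or LHX2 replicate 2 (0.053) and between 0.0017 and 0.054 over the alternatives. SLC25A42 (coenzyme A, 0.16, adjusted p = 0.14), SLC25A17 (a peroxisomal carrier, -0.11, 0.24) and SLC25A26 (S-adenosylmethionine, -0.24, 0.068) did not pass in log2 fold change. LRIG1 lies opposite 15.5% of the exonic bases of SLC25A26 and fell by 0.26 on the log2 scale (adjusted p = 0.021), so reads may have been shared here too. SLC25A42 passed without LHX2 replicate 2 (0.24, adjusted p = 0.027; 0.027 to 0.58 over the alternatives). SLC25A51, the NAD+ carrier, stood at 10.6 ± 0.828 CPM in control and 8.97 ± 0.288 CPM in LHX2 libraries. Its groups did not overlap, but the change of -0.24 ± 0.09 missed the threshold (adjusted p = 0.053), which it passed without control replicate 2 (-0.30, 0.04) and with RLE size factors (-0.24, 0.049), with a highest adjusted p of 0.19. Its near copy SLC25A51P4 stood at 5.64 ± 0.584 and 4.68 ± 0.243 CPM (adjusted p = 0.084), so that reads may have been shared between them. SLC25A52, its other paralogue, had 0 to 5 counts per library and was not tested.

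Among amino acid carriers, SLC25A18 gave the largest change of all 41 tested members. SLC25A18 and SLC25A22 carry glutamate with protons into the matrix. At chr22:17563498-17590995, SLC25A18 had 2.49, 2.86 and 2.06 CPM in control (81, 112 and 67 counts) and 5.39, 6.14 and 5.99 CPM in LHX2 libraries (162, 187 and 216 counts). The lowest LHX2 library was well above the highest control, and the gene was 2.35-fold higher (log2 fold change 1.23 ± 0.14, adjusted p = 7.2e-06). The antisense gene AC007666.1 lies opposite 11% of the exonic bases of SLC25A18 and was not counted under that symbol. As the strand setting is not given, its reads may have been counted for SLC25A18. SLC25A22 stood at 11.6 ± 0.499 CPM in control and 10.6 ± 0.799 in LHX2 libraries (-0.13, adjusted p = 0.27), and passed with the length and GC trend removed (-0.22, 0.033, the lowest of the alternatives, which reached 0.51). Per kilobase, SLC25A18 stood at 0.262, 0.298 and 0.233 of SLC25A22 in control and at 0.675, 0.740 and 0.650 in LHX2 libraries. SLC25A22 thus remained the glutamate carrier with the higher level in all 6 libraries, with a smaller lead in those with LHX2.

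The aspartate/glutamate carriers export aspartate in the malate-aspartate shuttle, and SLC25A13 (citrin) is the liver form. It had 193, 196 and 194 CPM in control and 175, 179 and 177 CPM in LHX2 libraries. The libraries of each group were within a few CPM of each other, and the gene fell by 0.13 ± 0.04 on the log2 scale (adjusted p = 0.0099), 1.10-fold. Leaving out control replicate 2 ended the call (adjusted p = 0.059, the highest of the alternatives; the lowest was 0.0061). SLC25A12 (aralar), the form of brain and muscle, had 9, 7 and 7 counts in control and 3, 5 and 4 in LHX2 libraries and was not tested. With every counted gene kept in the test it did not pass (adjusted p = 0.42). Of the ornithine carriers, SLC25A15, which returns ornithine to the matrix for the urea cycle, stood at 60.7 ± 2.31 and 59.9 ± 5.13 CPM (log2 fold change -0.02 ± 0.06, adjusted p = 0.82). SLC25A2 had 2 counts in 1 control library and none elsewhere.

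SLC25A38, the glycine carrier needed for the first step of haem synthesis, had 70.5, 66.1 and 64.5 CPM in control and 59.1, 55.6 and 59.3 CPM in LHX2 libraries. The groups were apart, and the gene fell by 0.21 ± 0.05 on the log2 scale (adjusted p = 0.0037). SLC25A29, a carrier of basic amino acids, had 4.82, 4.08 and 4.07 CPM in control and 5.36, 5.88 and 6.88 CPM in LHX2 libraries. It rose 1.40-fold without overlap (log2 fold change 0.49 ± 0.12, adjusted p = 0.0072), and the call was lost without replicate 3 of both groups (0.34, adjusted p = 0.079; lowest 0.001). SLC25A44, which carries branched-chain amino acids, had a log2 fold change of -0.04 ± 0.06 (adjusted p = 0.62).

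None of the 4 di- and tricarboxylate carriers passed. SLC25A1, the citrate carrier of lipid synthesis, stood at 63.3 ± 4.03 CPM in control and 56.8 ± 5.44 in LHX2 libraries (log2 fold change -0.16 ± 0.06, adjusted p = 0.081). It passed without control replicate 3 (-0.21, 0.025), without LHX2 replicate 3 (-0.23, 0.0059), without both (-0.29, 0.00067), with the length and GC trend removed (-0.21, 0.00083) and with every counted gene kept in the test (-0.16, 0.027). The highest adjusted p over the alternatives was 0.3. SLC25A11, the oxoglutarate/malate carrier, stood at 66.8 ± 0.232 and 70.0 ± 4.03 CPM (adjusted p = 0.3), and SLC25A10, the dicarboxylate carrier, at 15.3 ± 1.35 and 14.6 ± 1.13 (0.58). SLC25A21, the oxodicarboxylate carrier, was at 1.28 ± 0.142 and 1.70 ± 0.295 CPM. Its groups did not overlap, but the change of 0.40 ± 0.20 did not pass (adjusted p = 0.14).

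SLC25A20 exchanges acylcarnitine for carnitine and so admits long-chain fatty acids to oxidation. It had 64.7, 67.0 and 63.6 CPM in control and 55.3, 54.6 and 59.6 CPM in LHX2 libraries. Every LHX2 library was lower, with a fall of 0.20 ± 0.05 on the log2 scale (adjusted p = 0.0038).

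The mitoferrins bring iron into the matrix. SLC25A37 (mitoferrin 1), at chr8:23528956-23575463, had 19.9, 18.4 and 19.5 CPM in control and 15.2, 15.5 and 15.7 CPM in LHX2 libraries. The LHX2 libraries lay close together below the controls, and the gene fell by 0.31 ± 0.07 on the log2 scale (adjusted p = 0.0027), 1.24-fold. SLC25A28 (mitoferrin 2) stood at 13.3 ± 0.638 and 11.4 ± 1.06 CPM. Its groups did not overlap either, but the change of -0.22 ± 0.09 did not pass (adjusted p = 0.068), except without LHX2 replicate 3 (-0.28, 0.028), without replicate 3 of both groups (-0.31, 0.02) and with the length and GC trend removed (-0.21, 0.041), with a highest adjusted p of 0.23. The ratio of the 2 mitoferrins per kilobase overlapped between the groups, at 0.419 to 0.459 in control and 0.380 to 0.453 in LHX2 libraries.

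SLC25A39 and SLC25A40 bring glutathione into the matrix. SLC25A39 had 88.2, 84.0 and 80.1 CPM in control and 77.9, 77.0 and 82.5 CPM in LHX2 libraries. The groups overlapped through LHX2 replicate 3, and the change of -0.09 ± 0.05 did not pass (adjusted p = 0.17), except without replicate 3 of both groups (-0.15, 0.023) and with the length and GC trend removed (-0.11, 0.026), with a highest adjusted p of 0.5. SLC25A40 was at 54.7 ± 0.503 and 55.5 ± 2.36 CPM (log2 fold change 0.02 ± 0.05, adjusted p = 0.78).

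**Figure D4:**
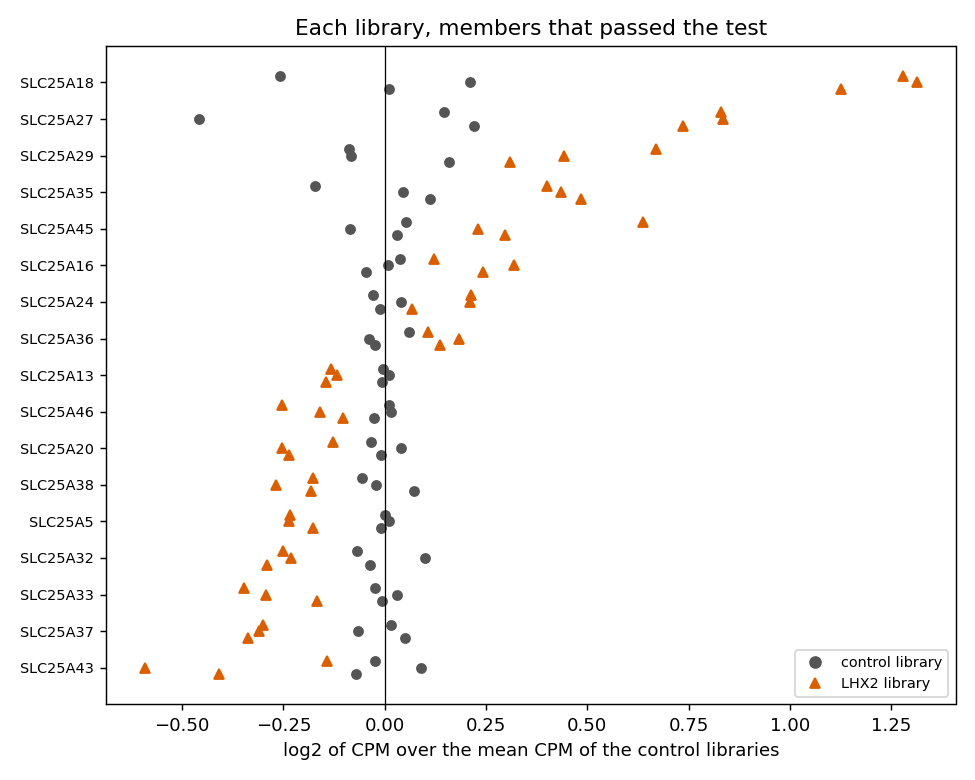
Log2 of each library's CPM over the mean CPM of the 3 control libraries (horizontal axis) for the 17 SLC25A genes that passed the test, control libraries as circles and LHX2 libraries as triangles. The groups do not overlap in any of the 17 genes, but for SLC25A24, SLC25A36, SLC25A43 and SLC25A46 the gap between them is narrow.

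Of the carriers related to uncoupling proteins, SLC25A27 (UCP4), known mainly from brain, rose. At chr6:46652975-46678190 it had 2.98, 1.86 and 2.83 CPM in control (97, 73 and 92 counts) and 4.26, 4.56 and 4.55 CPM in LHX2 libraries (128, 139 and 164 counts). Control replicate 2 was the lowest library, all LHX2 libraries were above the controls, and the gene was 1.76-fold higher (log2 fold change 0.82 ± 0.16, adjusted p = 0.0012). SLC25A14 (UCP5; 9.61 ± 1.07 and 10.9 ± 0.463 CPM, adjusted p = 0.17) and SLC25A30 (31.6 ± 0.563 and 28.7 ± 1.83 CPM, adjusted p = 0.091) did not pass. SLC25A30 passed without LHX2 replicate 1 (-0.19, adjusted p = 0.048, the lowest of the alternatives, which reached 0.37).

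For comparison of the members with the largest rises with the abundant carrier of the smallest p among those that fell, the 250 bases upstream of SLC25A18 (chr22:17563248-17563497), SLC25A27 (chr6:46652725-46652974) and SLC25A5 (chrX:119468194-119468443) are printed, all on the plus strand of GRCh38.p14, from RefSeq, 5′ to 3′. None held a motif searched for, so none has capitals. Their GC content was 46.0%, 63.2% and 73.6%.
SLC25A18: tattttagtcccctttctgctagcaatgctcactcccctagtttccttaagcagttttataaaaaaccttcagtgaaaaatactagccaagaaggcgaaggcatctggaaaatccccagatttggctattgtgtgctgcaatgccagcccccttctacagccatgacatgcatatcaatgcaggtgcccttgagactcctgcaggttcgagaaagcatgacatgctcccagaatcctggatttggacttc
SLC25A27: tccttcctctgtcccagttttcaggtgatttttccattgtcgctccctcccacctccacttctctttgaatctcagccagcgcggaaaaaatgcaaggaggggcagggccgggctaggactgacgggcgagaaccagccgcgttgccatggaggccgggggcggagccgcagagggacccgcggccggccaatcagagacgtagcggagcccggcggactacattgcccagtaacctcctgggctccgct
SLC25A5: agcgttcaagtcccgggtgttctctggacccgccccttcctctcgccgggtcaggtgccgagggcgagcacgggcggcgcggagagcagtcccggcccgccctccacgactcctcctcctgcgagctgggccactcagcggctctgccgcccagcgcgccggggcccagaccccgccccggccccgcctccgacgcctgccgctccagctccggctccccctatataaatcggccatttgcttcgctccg

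RefSeq start sites of the same build were matched for 40 of the 48 members. In the window from 250 bases before to 50 bases after the start, the letters TAATTA (the core bound by LIM-homeodomain factors) were found in 0 of 40 members, against 4.84% of 35116 promoters. The NRF1 site was found in 5 members, or 12.5%, against 5.78% of promoters, and CCGGAAGT (ETS factors) in 3, or 7.5%, against 4.14%. CACGTG (E-box) was found in 7, or 17.5%, against 7.26%. The 35116 promoters were not restricted to coding or tested genes and were not matched for GC content. They are therefore an unlike set, and whether any motif is enriched in the members was not tested. Both strands were searched, and no motif contains another. The 7 members with an E-box were SLC25A13, SLC25A33, SLC25A38 and SLC25A46 among 7 matched members that fell, SLC25A36 among 6 that rose, and SLC25A31 and SLC25A51 among the other 27. The share with an E-box among all genes that fell was not computed, so these counts are no result about the members that fell. The window of SLC25A46 (chr5:110738757-110739056) does not lie at the start of the gene's RefSeq span, 110738145. Nor do the windows of SLC25A25, SLC25A26, SLC25A28, SLC25A45 and SLC25A48 lie at the starts of their spans. A match describes letters in this window and is no evidence of binding, and its absence says nothing about the factor.

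Carriers whose substrate is unsettled, or that do other work, gave 2 rises and 2 falls among 6 tested. SLC25A35, an orphan carrier, had 6.12, 5.84 and 5.02 CPM in control and 7.92, 7.65 and 7.47 CPM in LHX2 libraries. It rose 1.35-fold without overlap (log2 fold change 0.44 ± 0.10, adjusted p = 0.0041). RANGRF lies opposite 33.2% of its exonic bases and did not pass (log2 fold change -0.06, adjusted p = 0.57). SLC25A45 rose from 4.33 ± 0.222 to 5.72 ± 0.895 CPM (0.41 ± 0.13, adjusted p = 0.022), with LHX2 replicate 3 the highest library at 6.74 CPM. Its call was lost without that library (0.27, adjusted p = 0.12), without control replicate 1 (0.42, 0.053) or without control replicate 2 (0.36, 0.093), and its adjusted p ran from 0.008 to 0.13. SLC25A43 fell from 7.07 ± 0.41 to 5.48 ± 0.869 CPM (-0.36 ± 0.12, adjusted p = 0.028). This call was lost without control replicate 2 (adjusted p = 0.12), LHX2 replicate 1 (0.073) or LHX2 replicate 2 (0.11) and with library totals alone (0.05), and its lowest adjusted p was 0.0039. SLC25A46, a protein of the outer membrane that acts in mitochondrial shape, fell from 27.3 ± 0.443 to 24.2 ± 1.28 CPM (-0.17 ± 0.06, adjusted p = 0.046). It kept that call in only 4 of 15 alternatives, with an adjusted p of 0.034 to 0.16. Leaving out control replicate 1 (0.078), 2 (0.14) or 3 (0.087) or LHX2 replicate 2 (0.077) or 3 (0.15) each ended it. SLC25A34 (log2 fold change 0.28 ± 0.29, adjusted p = 0.5) and SLC25A53 (0.09 ± 0.16, 0.72) did not pass.

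**Figure D5:**
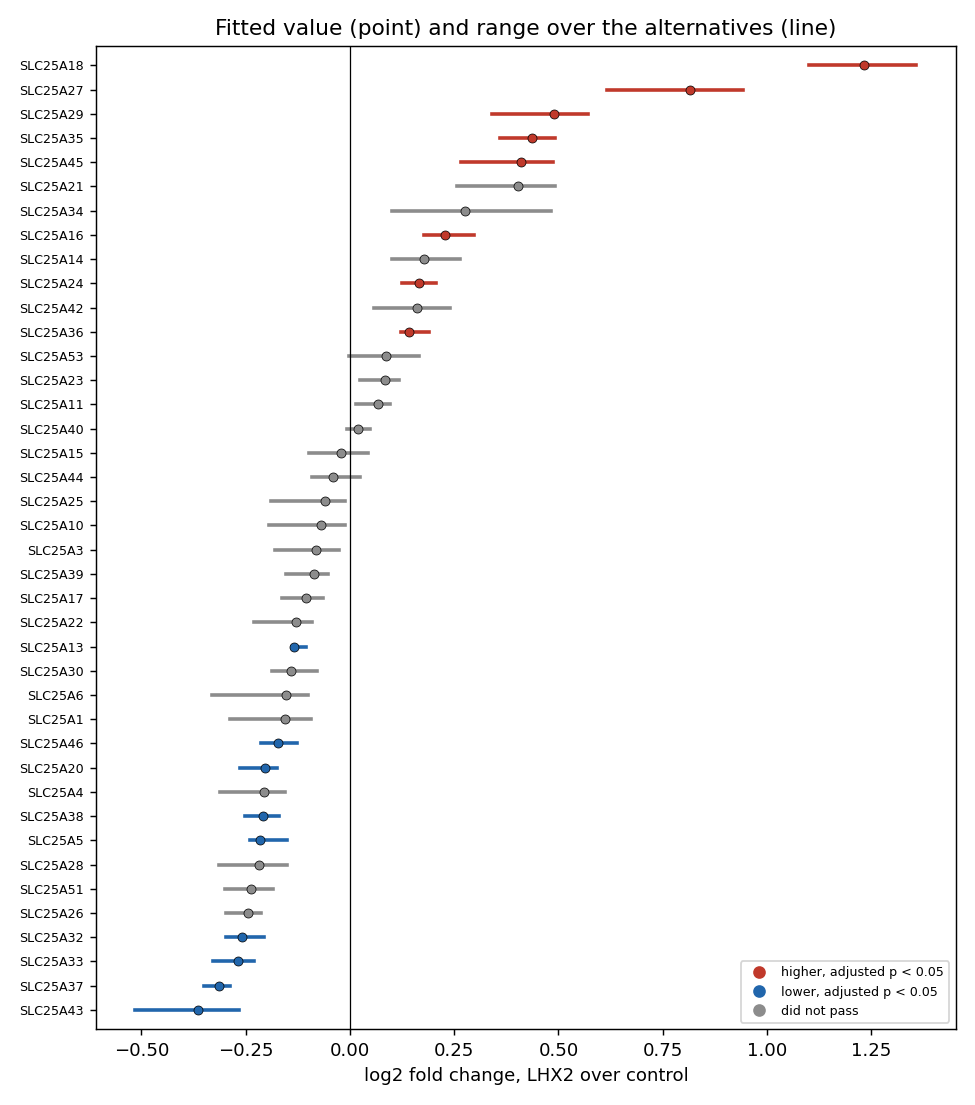
Log2 fold change (LHX2 over control, horizontal axis) of 40 of the 41 tested SLC25A genes, as a point, with the range of its value over the alternatives as a line, coloured by call. The ranges of the 17 genes that passed stay on their side of 0, while those of SLC25A53, SLC25A40, SLC25A15 and SLC25A44 cross it.

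Too few reads to be tested were found for 7 members: SLC25A2, SLC25A12, SLC25A31, SLC25A41, SLC25A47, SLC25A48 and SLC25A52. SLC25A47, a carrier known from liver, and SLC25A48, a choline carrier, had no count in any library, as SLC25A31. A floor of 3 counts stands for 0.0757 to 0.0999 CPM at these depths and covers counting error only, so that lower levels were not detectable.

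Of the 17 members called, 8 kept the call under all 15 alternatives: SLC25A18, SLC25A27, SLC25A35, SLC25A5, SLC25A33, SLC25A37, SLC25A38 and SLC25A20. The 8 members that rose had a median of 5.93 CPM over the 6 libraries and the 9 that fell a median of 36.2 CPM, beside 27.0 CPM for the 2415 genes that rose and 57.6 CPM for the 2301 that fell over all genes. Their median principal transcripts were of 2674 and 2783 bases, beside 3937 and 2821 bases over all genes. The members lie on 19 chromosomes, and SLC25A43 and SLC25A5, both lower, are neighbours on X with 13965 bases between them. Also within 100 kb of each other, SLC25A29, which rose, lies 16894 bases from SLC25A47, which had no count. SLC25A41, which was not tested, overlaps SLC25A23, which did not pass.

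Genes that work beside the carriers were described from lists that were chosen with earlier results of these data known. The counts stand beside 16.6% of all genes that rose and 15.8% that fell, and no test was made of a list as a whole. The close relatives under other symbols, UCP1 to UCP3, MTCH1 and MTCH2, gave 0 rises and 1 fall among 5, with a median log2 fold change of 0.03; MTCH2, an outer membrane insertase, fell by 0.15 (adjusted p = 0.0065). Of 10 tested genes of the TIM22 route, which inserts carriers into the inner membrane, 0 rose and 6 fell, with a median of -0.22. The outer membrane receptor gene TOMM70 went from 232 ± 5.55 to 183 ± 5.54 CPM (-0.34, adjusted p = 1.1e-05) and TIMM10, a chaperone of the intermembrane space, from 184 ± 2.56 to 147 ± 9.18 CPM (-0.32, 6.7e-05). Of 16 other transporters of the mitochondrial membranes 2 rose and 5 fell, with a median of -0.05. The sideroflexin genes SFXN3 (1.06, adjusted p = 2.1e-06) and SFXN5 (0.20, 0.013) rose in log2 fold change, and VDAC1, the outer membrane pore (-0.32, 1.3e-05), and LETM1 (-0.25, 0.00035) fell.

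Enzymes and regulators around the carriers were counted against the same shares of all genes, 16.6% that rose and 15.8% that fell. Of 10 genes of the malate-aspartate shuttle and citrate export, which share substrates with SLC25A13, SLC25A11 and SLC25A1, 0 rose and 6 fell (median -0.17), with ME1 at -0.42 (adjusted p = 8.5e-07) and MDH2 at -0.42 (3.8e-05). Of 7 tested urea cycle genes, 0 rose and 5 fell (median -0.38), ARG1 by 1.36 (adjusted p = 1.3e-07) and CPS1 by 0.92 (3.7e-09) on the log2 scale, while the ornithine carrier SLC25A15 stood at -0.02. Of 5 tested carnitine shuttle genes, 2 rose and 0 fell (median 0.14): CPT1A, which makes long-chain acylcarnitine, went from 18.1 ± 1.22 to 31.0 ± 2.18 CPM (0.77, adjusted p = 1.6e-06) and SLC22A5, the plasma membrane carnitine transporter, rose by 0.44 (0.0091), while SLC25A20 fell. Of 10 genes of mitochondrial iron, haem and iron-sulphur synthesis, 1 rose and 4 fell (median -0.15), with PPOX at 0.27 (adjusted p = 0.029), CPOX at -0.42 (1e-05) and NFS1 at -0.39 (7.8e-05). Of 9 regulators of mitochondrial biogenesis, 0 rose and 4 fell (median -0.16), with TFB2M at -0.42 (adjusted p = 5e-05) and PPARGC1B at -0.63 (0.00023).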

How the data were processed

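RNA-seq of 6 libraries was used, 3 with the control vector and 3 with the LHX2 vector. Per the labels' protocols, a stranded mRNA kit was used. The submitters' processing notes name TopHat2 2.1.1 with Bowtie2 2.3.5.1, featureCounts 2.0.0, SAMtools 1.9 and bcl2fastq 2.20, and the build GRCh38; the annotation and the strand setting of the counting are not stated there. What the authors deposited were raw counts per gene. The column of control replicate 1 was named in another form than the rest and was assigned by the number it ends in.

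Low counts were removed with filterByExpr at its defaults (a minimum count of 10, a total of 15), and the rest were TMM-scaled and compared by the edgeR 4.0.16 quasi-likelihood F-test (group only) on the whole table, with Benjamini-Hochberg adjustment over all genes at 0.05. Scripts ran in R 4.3.3 (limma 3.58.1, DESeq2 1.42.0) and Python 3.11.15 (scipy 1.17.1, matplotlib 3.10.9). On simulated data the test recovered 20 of 50 changes of 1.2-fold, 37 of 50 of 1.5-fold, 46 of 50 of 2-fold and 48 of 50 of 4-fold. It made 10 false calls among 14188 unchanged genes. A member that did not pass may therefore still have changed by a small amount. Transcript length (APPRIS principal, GENCODE release 29) gave CPM per kb; positions and promoters were from RefSeq. Replicates of the same number did not deviate together (correlations -0.056, -0.074 and -0.195), so the main test has no block.

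The members and lists were chosen with earlier results of these data known. By rule, every member that passed is named, library values are given for the 12 with the smallest adjusted p and the 6 with the most reads, paralogues member by member, and of other lists the 2 smallest adjusted p in each direction. Further members were named outside that rule, and 1 tested member is counted but not reported here. Alternatives were RLE factors, library totals alone, no filter, 1 CPM in 3 libraries, DESeq2, limma-voom, a replicate block, a loess trend (span 0.3) with length and GC content removed, and each library left out; leaving out replicate 3 of both groups was added after the data were seen.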

Additional observations from a re-analysis of the deposited data

How the results depend on the processing

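The counts of carriers that rose (8) and fell (9) stayed within 1.5 times under RLE factors (8 and 10), library totals alone (8 and 7), no filter (8 and 11), 1 CPM in 3 libraries (8 and 9), DESeq2 (8 and 8) and limma-voom (8 and 9). Removing the length and GC trend gave 14 that fell. Without replicate 3 of both groups, chosen after seeing the data, 5 rose and 14 fell. With 1 library left out at a time, 4 to 8 rose and 6 to 12 fell, while 12.5% to 15.7% of all genes rose and 11.5% to 15.3% fell; the lowest count of rises was without control replicate 1, and the highest count of falls without replicate 3 of either group. Of the 17 called members, 9 lost the call under 1 or more of 15 alternatives, and of the 24 others 10 gained one. No called member changed direction. The causes were not tested. Fitted with the replicate number as a block, 7 rose and 7 fell, SLC25A36 (adjusted p = 0.06), SLC25A43 (0.055) and SLC25A46 (0.11) being lost; the numbers did not pair the samples. The count filter kept 7 members with few or no counts out of the test, and whether depth or absent expression lay behind this was not tested.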
